A study of Mus musculus with 24 samples.

Results

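The renin-angiotensin genes Agt, Agtr2, Agtr1a and Ace were followed in cultured mouse adipocytes of brown and of white origin. Agt encodes angiotensinogen, Ace encodes angiotensin-converting enzyme, and Agtr1a and Agtr2 encode angiotensin II receptors. The 4 genes were chosen from earlier results of these same arrays, that is, from their signals over the 24 arrays. Their values are therefore given as a description, with no test. Of the 4 genes, 3 had probe sets annotated with that single symbol, and these were 6 of the 12488 probe sets of the array: 1 for Agt, 2 for Agtr2 and 3 for Ace. Agtr1a was not analysed here. Signals are the deposited linear MAS5 intensities, with each array scaled to a trimmed mean of 150, and those under 8.21 count as at the floor. A probe set was tested if it lay above the 40th percentile of its own array on at least 5 arrays, a filter that 4 of the 6 passed. Differences are of mean log2 signal after flooring, from 1 limma model of all arrays, and a list gene is called at a Benjamini-Hochberg adjusted p under 0.05.

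The measured groups were brown fat cells at day 7 (n = 5 arrays), brown fat cells at day 4 (n = 5), white fat cells at day 7 (n = 6) and white fat cells at day 4 (n = 8). The labels describe the day 4 cells as non differentiated and the day 7 cells as differentiated. All groups were grown in vitro after isolation from tissue, and no group carries a named allele or drug. Mouse strain, age, sex, fat depot and culture medium are not given in the sources used here. Whether replicate arrays stand for different mice or different dishes is nowhere stated, so the p-values below reflect array-to-array spread alone, and that spread may be technical. The array numbers of brown cells all precede those of white cells, so handling and cell type cannot be told apart. A primary culture can hold other cells beside adipocytes, and in such bulk samples fewer cells of a type and less RNA per cell cannot be told apart.

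The renin-angiotensin system is best known for control of blood pressure. Angiotensinogen, secreted chiefly by the liver and also by adipose tissue, is cut by renin to angiotensin I, which angiotensin-converting enzyme trims to angiotensin II. Most of the known actions of angiotensin II on vessels run through the type 1 receptor, while the type 2 receptor, product of Agtr2, is abundant in fetal tissue and often opposes them. Adipose tissue holds most parts of this system, and angiotensinogen made by fat cells can enter the blood.

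The sequences just before the start sites of the 3 measured genes are shown because the signals of all 3 genes differed between groups, and Agt and Ace were both higher at day 7 in brown cells. They are the 250 bases before the annotated start in the RefSeq promoter table (GRCm38.p6), in which 3 of the 4 genes were matched. The bases TATAA, the core of the TATA box that positions transcription initiation, are in capitals where they occur on the printed strand. Agt lies on the minus strand at chr8:124569707-124569956, Agtr2 on the plus strand at chrX:21484374-21484623, and the more upstream of 2 annotated Ace starts on the plus strand at chr11:105967698-105967947.
Agt: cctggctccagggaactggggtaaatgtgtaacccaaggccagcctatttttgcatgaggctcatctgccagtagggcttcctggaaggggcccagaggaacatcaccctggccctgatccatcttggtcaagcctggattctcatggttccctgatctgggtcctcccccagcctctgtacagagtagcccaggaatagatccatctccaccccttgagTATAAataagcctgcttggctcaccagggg
Agtr2: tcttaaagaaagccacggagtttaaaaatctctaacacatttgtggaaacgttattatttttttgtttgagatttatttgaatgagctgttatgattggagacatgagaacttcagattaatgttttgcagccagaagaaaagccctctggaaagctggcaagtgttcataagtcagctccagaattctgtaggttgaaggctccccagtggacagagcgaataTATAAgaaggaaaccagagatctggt
Ace: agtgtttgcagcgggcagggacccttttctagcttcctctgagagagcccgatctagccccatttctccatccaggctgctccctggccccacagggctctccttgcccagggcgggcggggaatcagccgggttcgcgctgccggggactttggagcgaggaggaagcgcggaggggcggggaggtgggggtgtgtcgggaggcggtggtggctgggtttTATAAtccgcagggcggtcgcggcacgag

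Each of the 3 stretches holds TATAA close to the start: its first base lies at position -30 in Agt, -26 in Agtr2 and -29 in Ace, counted from the start site. In Ace a minus-strand TATAA at -30 overlaps the printed one. Of the 32851 promoters of this length in the table, 22.8% hold TATAA on either strand, and 3.52% hold it on the printed strand between 40 and 20 bases before the start. The GC box letters GGGCGG, on either strand, occur in 32.7% of promoters and stand 4 times before the start of Ace, at positions -140, -136, -75 and -18, the first 2 overlapping. The letters CCAAT, on either strand, occur in 33.8% of promoters and stand once, on the minus strand, in Agtr2 at position -156, and once, on the minus strand, before the other annotated Ace start at -25. The 250 bases before that other start, at chr11:105974939-105975188, hold no TATAA. Motifs and window were chosen after these sequences had been seen, so the matches are a description.

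Agt, the precursor of all angiotensins, had its lowest mean in brown cells at day 4 and was about as high in brown cells at day 7 as in white cells on either day. Its probe set (101887_at) gave signals of 493, 773, 527, 768 and 281 on the brown day 7 arrays 07, 08, 11, 12 and 22. On the brown day 4 arrays 05, 06, 09, 10 and 19 it gave 194, 269.9, 123, 126 and 211. Every brown day 7 array thus lay above every brown day 4 array, the nearest being array 22 at 281 against array 06 at 269.9. The mean signal was 568 ± 207 in brown day 7 cells and 185 ± 61.9 in brown day 4 cells (SD, n = 5 each), a log2 difference of 1.60 ± 0.32 (SE of the fit), or 3.03-fold. Probe sets whose arrays did not overlap between these groups, in either direction, were 9.73% of the 8397 tested.

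White cells showed no such difference in Agt. The signal ran between 253 and 668 in white day 7 cells, with a median of 485, and between 255 and 937 in white day 4 cells, with a median of 531. The day 7 range lies almost wholly within the day 4 range, while the day 4 arrays 41 and 42, at 862 and 937, lay above it. The mean was 457 ± 153 in white day 7 cells (SD, n = 6) and 569 ± 229 in white day 4 cells (SD, n = 8), a log2 difference of -0.29 ± 0.27, which was -0.13 without the white day 7 array 39. The change with time was larger in brown than in white cells by 1.88 ± 0.42 on the log2 scale.

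Between the cell types, Agt differed mainly at day 4. Its log2 difference, brown minus white, was -1.58 ± 0.29 at day 4, where the brown array 06 at 269.9 lay above the white array 38 at 255 and the other brown arrays lay below all white ones. At day 7 the difference was 0.30 ± 0.31, between 0.14 without the white array 39 and 0.53 without the brown array 22, and the ranges overlapped. In descending order of mean signal the groups were white day 4 and brown day 7, which had nearly the same mean, then white day 7, then brown day 4. The first 3 do not differ beyond their spread.

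Some markers of fat cells rose with time in both cell types. Of 8 adipocyte markers tested, 4 rose between day 4 and day 7 in brown cells, where 12.1% of all probe sets tested were called, and 6 rose in white cells, where 19% were called. None was called lower, and Fabp4 and Cebpa passed in neither cell type. Adipoq, the adiponectin gene, rose by 1.19 ± 0.32 in brown cells (adjusted p = 0.0145) and by 1.59 ± 0.27 in white cells (adjusted p = 0.000378) on the log2 scale. The summed signal of the 8 adipocyte markers ran from 14420 to 17400 in brown day 7 cells, against 8844 to 14290 in brown day 4 cells. In white cells it ran from 14670 to 21020 at day 7, against 6409 to 12150 at day 4. Among 4 measured hepatocyte markers, Apoa1 and Fgb were at the floor on every brown array, and the sum of all 4 was 39.8 to 71.6 in brown day 7 cells, against 37.02 to 55.6 in brown day 4 cells. The part of the adipocyte markers in the Agt result was not tested.

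**Figure D1:**
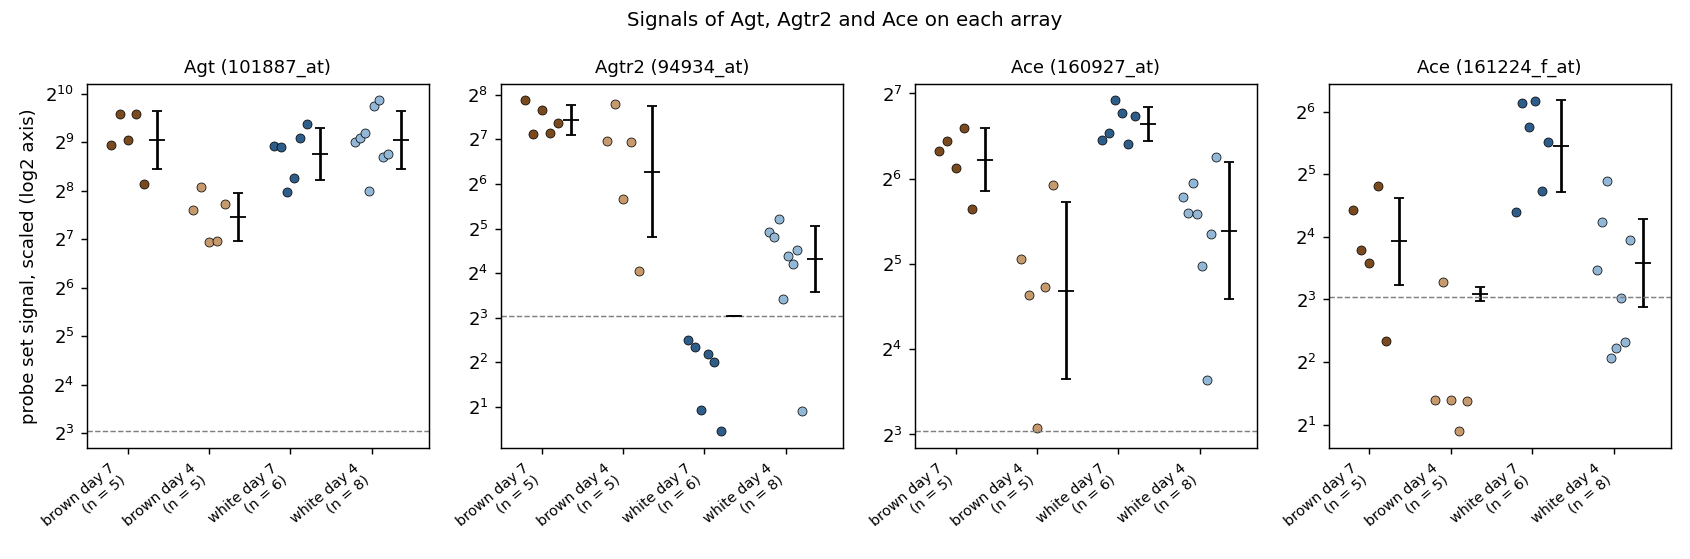
Scaled probe set signal (log2 axis) of Agt, Agtr2 and both Ace probe sets past the filter on each array, by group. Points are arrays, bars are the mean ± SD of the log2 values after flooring, and the dashed line is the floor of 8.21. All 5 brown day 7 arrays lie above all 5 brown day 4 arrays for Agt, and all 6 white day 7 arrays lie under the floor for Agtr2.

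Ace, the enzyme that makes angiotensin II and also degrades bradykinin, was higher at day 7 than at day 4 in both cell types on its brightest probe set (160927_at). The brown day 7 arrays gave signals of 80.5, 86.7, 69.6, 96.7 and 49.9, and the brown day 4 arrays 33.4, 24.8, 8.41, 26.5 and 61.0. The groups overlap through 1 array each, since the brown day 7 array 22 at 49.9 lay under the brown day 4 array 19 at 61.0. The mean was 76.7 ± 17.9 in brown day 7 cells and 30.8 ± 19.2 in brown day 4 cells (SD, n = 5 each), a log2 difference of 1.54 ± 0.40. In white cells the signal ran from 85.0 to 121 at day 7, with a median of 99.7, against 12.4 to 76.6 at day 4, with a median of 48.2.

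The white day 7 arrays thus lay above all white day 4 arrays for Ace, as did those of 4.79% of tested probe sets in either direction. The mean was 100.4 ± 14.1 in white day 7 cells (SD, n = 6) and 46.9 ± 19.4 in white day 4 cells (SD, n = 8), a log2 difference of 1.25 ± 0.34. The changes in the 2 cell types lay close together, with a difference between them of 0.29 ± 0.53, or -0.11 without the brown day 4 array 09. Brown minus white was -0.71 ± 0.36 at day 4 and -0.41 ± 0.39 at day 7, with overlapping arrays on both days. The day 4 value was -0.30 without the brown array 09, and the day 7 value was -0.27 without the brown array 22. From the highest mean to the lowest the groups were white at day 7, brown at day 7, white at day 4, then brown at day 4, and the arrays of each group overlapped those of its neighbours in that order.

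The other 2 Ace probe sets were dim. The probe set 161224_f_at, whose suffix marks probes that may also bind related sequences, lay above the 40th percentile of its array on 5 arrays only, all of white day 7 cells. It passed the filter through that group alone, so its height there had to show. Its signals ran from 21.2 to 72.0 in white day 7 cells and from 4.20 to 29.7 in white day 4 cells, and the log2 difference was 1.87 ± 0.36. In brown cells it ran from 5.06 to 28.0 at day 7 and from 1.86 to 9.76 at day 4, where 4 of 5 arrays were at the floor, and the log2 difference was 0.84 ± 0.42. With a floor at the 40th percentile of all values the brown difference was 0. Brown minus white at day 7 was -1.52 ± 0.41, and -0.69 with that higher floor.

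The probe set 101428_at did not pass the filter. It ran from 3.51 to 21.3 in brown day 7 cells, from 2.80 to 7.83 in brown day 4 cells, from 1.68 to 40.7 in white day 7 cells and from 3.66 to 11.1 in white day 4 cells. It stood over the 40th percentile on a single array, white day 7 array 44. In a fit without the filter its log2 differences, day 7 minus day 4, were 0.60 ± 0.35 in brown and 0.30 ± 0.30 in white cells.

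RNA quality, or the length of the labelled copies, moved with the white day 7 group in which Ace was highest. The ratio of the 3′ to the 5′ control probe set of Gapdh was 1.36 ± 0.20 in white day 7 cells and 0.94 ± 0.10 in white day 4 cells, against 0.89 ± 0.04 in brown day 7 cells and 0.88 ± 0.08 in brown day 4 cells (SD). With this ratio as a covariate, the Ace difference on 160927_at was 0.92 ± 0.59 for white day 7 minus day 4 and -0.0425 ± 0.67 for brown minus white at day 7. The ratio ran from 1.09 to 1.54 on white day 7 arrays, against 0.84 to 1.10 on white day 4 arrays, so ratio and group barely overlap and their parts in the white day 7 values cannot be told apart.

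Ace is known from endothelium and from macrophages, and markers of both were measured. Of 8 endothelial markers tested, 2 rose and 1 fell between day 4 and day 7 in brown cells (12.1% of all probe sets called), and 1 rose in white cells (19% of all called). In brown cells Icam2 rose by 1.19 ± 0.33 (adjusted p = 0.0162) and Tie1 by 0.95 ± 0.28 (adjusted p = 0.0273), while Eng fell by 0.66 on the log2 scale (adjusted p = 0.00536). Cdh5 was at 1.23 ± 0.43 (adjusted p = 0.06) and Emcn at 0.81 ± 0.38 (adjusted p = 0.175). Their summed signal, over 10 markers on the array, was 1530 to 2095 in brown day 7, 1640 to 2955 in brown day 4, 1420 to 1869 in white day 7 and 1377 to 2001 in white day 4 cells, with none at the floor throughout a group. Eng makes up most of this sum, with a mean of 1014 ± 124 in brown day 7 cells and 1647 ± 515 in brown day 4 cells (SD). Of 6 macrophage markers tested, 1 rose in brown cells and 2 in white cells, beside the same shares of all probe sets, among them Lyz2, a lysozyme, by 2.21 ± 0.48 (adjusted p = 0.00284) and 2.24 ± 0.41 (adjusted p = 0.000581). The sum over 11 macrophage markers was 588 to 736 in brown day 7, 452 to 536 in brown day 4, 815 to 1293 in white day 7 and 568 to 1575 in white day 4 cells. Itgam was at the floor in all groups and Marco in all but white day 7. The part of either cell type in the Ace signal was not tested.

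Agtr2, the type 2 receptor, gave its highest signals in brown cells and was low or at the floor in white cells. Its probe set 94934_at gave 236, 139, 202, 141 and 166 on the brown day 7 arrays 07, 08, 11, 12 and 22, and 126, 220.5, 50.4, 122 and 16.5 on the brown day 4 arrays 05, 06, 09, 10 and 19. In white day 7 cells the signal ran from 1.37 to 5.66, with a median of 4.28, and in white day 4 cells from 1.88 to 37.02, with a median of 21.9. Every brown day 7 array thus lay far above every white day 7 array, and the white day 7 arrays were all under the floor of 8.21.

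The mean Agtr2 signal was 177 ± 41.4 in brown day 7 cells (SD, n = 5) and 3.75 ± 1.74 in white day 7 cells (SD, n = 6). Measured against the floor, Agtr2 was at least 21.1-fold higher in brown than in white cells at day 7, a log2 difference of 4.40 ± 0.45, or 4.18 ± 0.79 with the Gapdh ratio as a covariate. Non-overlapping arrays were found for 18.1% of tested probe sets in that comparison. That share makes no allowance for a filter passed through brown cells. At day 4 the means were 107.0 ± 78.8 in brown cells (SD, n = 5) and 21.3 ± 11.2 in white cells (SD, n = 8), a log2 difference of 1.96 ± 0.42. The arrays overlapped at day 4, as the brown array 19 at 16.5 lay within the white range, whereas 7.29% of tested probe sets showed no overlap.

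With the floor of 8.21, day 7 and day 4 differed in opposite directions in the 2 cell types for Agtr2. Brown day 7 minus brown day 4 was 1.16 ± 0.47 on the log2 scale, with overlapping arrays, and it was 0.60 without the brown day 4 array 19. In white cells Agtr2 was 2.43-fold lower at day 7 than at day 4 after flooring. Array 51 of white day 4, at 1.88, was also raised to the floor, so this fold is not a lower bound. Only 1 of 8 white day 4 arrays lay above its array's 40th percentile. The white difference was -0.0514 on the log2 scale once signals were floored at that percentile of all values. The change in brown minus that in white cells was 2.44 ± 0.62. In descending order of mean the groups were brown at day 7, brown at day 4, white at day 4, then white at day 7. Brown day 7 and brown day 4 overlap through 1 brown day 4 array, array 06, brown day 4 and white day 4 through 1 brown array, and white day 4 and white day 7 through 1 white day 4 array.

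The other Agtr2 probe set, 161212_r_at, showed none of this. It did not pass the filter, and its signals were 0.87 to 1.69 in brown day 7, 0.54 to 1.58 in brown day 4, 0.52 to 7.56 in white day 7 and 0.55 to 13.5 in white day 4 cells. All but 1 array, white day 4 array 42, were at the floor. The Agtr2 pattern thus rests on 94934_at alone.

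Markers that differ between the 2 kinds of culture differed as well. Zic1, a transcription factor of brown fat precursors, was at the floor on every white array and averaged 68.1 ± 7.60 in brown day 7 cells. Ucp1, the uncoupling protein of brown fat, did not pass the filter and ran from 17.4 to 125 in brown day 7 cells, against 4.50 to 21.3 in white day 7 cells. Of 10 smooth muscle and pericyte markers tested, 4 were higher and 5 lower in brown than in white cells at day 7, where 25.2% of all probe sets were called, and 4 were lower at day 4, where 23% were called. Their summed signal over 11 markers was 4150 to 6078 in brown day 7 cells, against 6517 to 9498 in white day 7 cells, and 3201 to 4200 in brown day 4 cells, against 4632 to 8481 in white day 4 cells. Endothelial markers were called higher in brown cells for 4 of 8 genes at day 4, and for 4 of 8 at day 7, where Flt1 was lower, beside the same shares of all probe sets. The part of any of these cells in the Agtr2 signal was not tested.

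**Figure D2:**
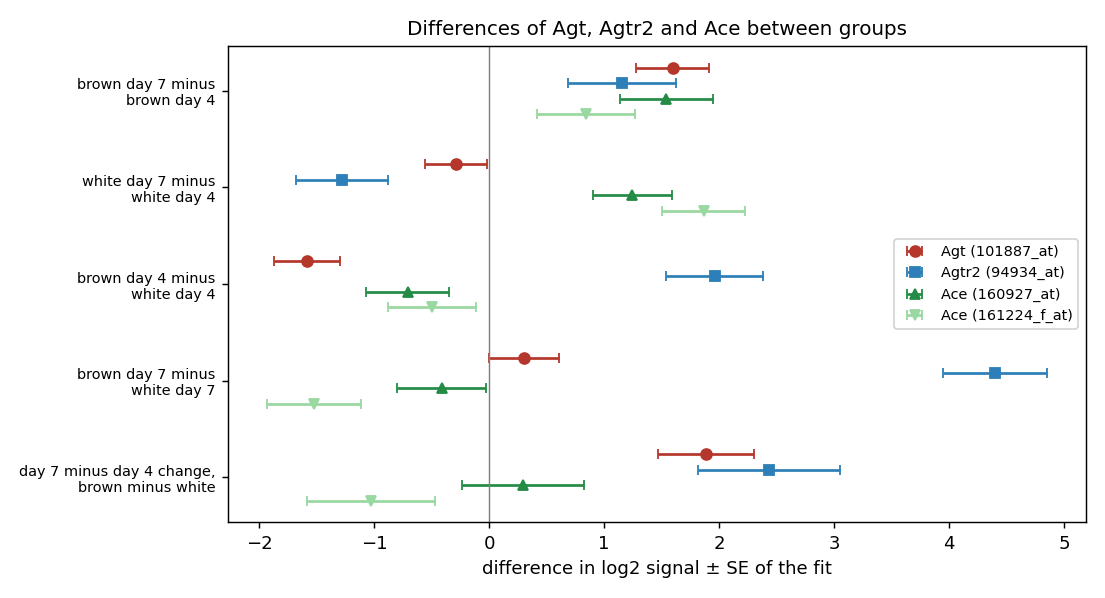
Difference in log2 signal between groups for Agt, Agtr2 and both Ace probe sets past the filter, with bars for the standard error of the fit. Agtr2 lies at 4.40 in brown minus white at day 7, where the white arrays are at the floor, and Agt at 1.60 in brown day 7 minus day 4 and -0.29 in white.

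Array numbers fall into runs in which day 4 arrays are followed by day 7 arrays, 3 runs in brown and 3 in white cells with both days. What the numbers mean is not stated in the labels. Within the brown runs, Agt at day 7 minus day 4 was 1.43, 2.36 and 0.41 on the log2 scale, and within the white runs it was -0.13, -0.47 and -0.58. The sign was thus the same in all runs of a cell type. Agtr2 gave 0.12, 1.11 and 3.33 in the brown runs and -1.83, -1.28 and -1.27 in the white runs, so that the size in brown cells varied widely. Ace on 160927_at gave 1.54, 2.46 and -0.29 in the brown runs and 0.81, 1.08 and 2.27 in the white runs. The brown run of arrays 19 and 22, with 1 array a day, went against the others for Ace and had the smallest difference in Agt.

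**Figure D3:**
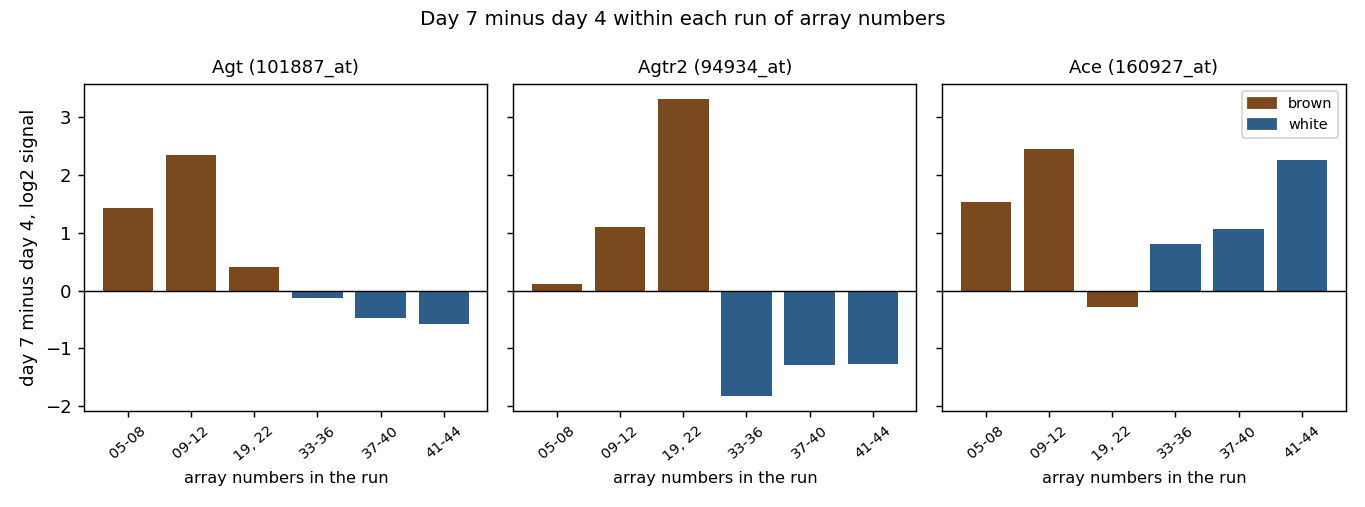
Day 7 minus day 4 in log2 signal of Agt, Agtr2 and Ace within each run of array numbers. Each bar is 1 run, brown or white. Agt and Agtr2 are above 0 in all 3 brown runs and below 0 in all 3 white runs, and Ace is below 0 in 1 brown run.

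Genes whose log2 signal over the 24 arrays was most like that of each member were taken from 6278 other genes, by Pearson correlation. All arrays share their 4 groups, so likeness mostly mirrors the group means. For Agt they were Ldhb (r = 0.85), Tbc1d20 (0.811), Ahsg (0.759), Grina (0.755) and Cryzl2 (0.719). For Agtr2 they were Mtx2 (r = 0.896), Meox2 (0.892), Ptcd2 (0.878), Mrpl39 (0.868) and Ghitm (0.856). For Ace on 160927_at they were Gyg (r = 0.885), Gas6 (0.863), Agrn (0.838), Itm2b (0.83) and Hexa (0.83), and on 161224_f_at Clu (0.876), Tgoln1 (0.868), Dpp7 (0.852), Gyg (0.841) and Thbs2 (0.836). Gyg was the single gene found near both Ace probe sets.

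Genes around the 4 members were taken from 8 lists of the wider pathway, drawn up with earlier results of these arrays known. The lists name 73 genes, of which 54 had a probe set with a single symbol and 42 were tested. Renin itself (Ren1, Ren2) and Agtr1b were not analysed here. Over all lists, 3 genes rose and 3 fell between day 4 and day 7 in brown cells, where 12.1% of all 8397 probe sets were called at an adjusted p under 0.05. In white cells 6 rose and 4 fell, where 19% of all were called. Brown cells were higher than white for 4 and lower for 4 genes at day 4 (23% of all called), and higher for 5 and lower for 5 at day 7 (25.2% of all). The change with time differed for 1 gene (0.214% of all). The share called among the 42, between 14.3% and 23.8% in the first 4 comparisons, was near these backgrounds, and the median log2 difference of the 42 was within 0.09 of 0 in each.

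On the list of renin and angiotensin-forming proteases, 3 genes were tested: the proteases Ctsd and Cma1 and the (pro)renin receptor Atp6ap2. Of these, 1 rose with time in both cell types. Of all probe sets, 12.1% were called in brown and 19% in white cells. Ctsd, the lysosomal protease cathepsin D, had a mean signal of 3856 ± 889 in brown day 7 cells and 2219 ± 529 in brown day 4 cells (SD, n = 5 each). It rose by 0.80 ± 0.18 (adjusted p = 0.00393) in brown and by 0.61 ± 0.15 (adjusted p = 0.00698) in white cells on the log2 scale. Atp6ap2 was 0.43 ± 0.20 and 0.39 ± 0.17 and did not pass the test (adjusted p = 0.168 and 0.113). The median of the 3 genes, which is the Atp6ap2 value itself, was 0.43 in brown and 0.39 in white cells, beside 0.01 for all probe sets in each.

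Among 8 tested peptidases that cleave angiotensins, Thop1 changed with time in both cell types and Mme differed between the cell types on both days. Of the 8, 12.5% were called with time in brown and 25% in white cells, beside 12.1% and 19% of all probe sets. Between the cell types 25% were called at day 4 and 37.5% at day 7, beside 23% and 25.2% of all. Thop1, an oligopeptidase that can form angiotensin-(1-7), fell in both cell types: its mean was 88.1 ± 21.4 in brown day 7 cells and 174.6 ± 12.8 in brown day 4 cells, and 58.3 ± 13.4 in white day 7 cells and 109 ± 31.0 in white day 4 cells (SD). The arrays of the 2 days did not overlap in either cell type, and the log2 differences were -1.02 ± 0.21 (adjusted p = 0.00231) and -0.88 ± 0.18 (adjusted p = 0.00168). Of all probe sets tested, 9.73% in brown and 4.79% in white cells showed no overlap between days. Mme, the membrane peptidase neprilysin, was higher in brown than in white cells on both days. Its mean was 69.8 ± 13.3 in brown day 7 cells against 12.3 ± 8.69 in white day 7 cells, and 43.7 ± 11.7 in brown day 4 cells against 6.09 ± 7.81 in white day 4 cells (SD). The log2 differences were 2.39 ± 0.33 (adjusted p = 6.49e-06) and 2.17 ± 0.31 (adjusted p = 1.28e-05), with no overlap, though 7 of 8 white day 4 arrays were at the floor, so that the size depends on it. Between the cell types, 18.1% of tested probe sets showed no overlap at day 7 and 7.29% at day 4.

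The rest of the peptidases changed less. Dpp3 fell in white cells by 0.63 on the log2 scale (adjusted p = 0.00105), and Enpep, the aminopeptidase that makes angiotensin III, was lower in brown than in white cells at day 7 by a log2 difference of -0.94 ± 0.27 (adjusted p = 0.0125). Thop1 was also higher in brown than in white cells, by 0.73 ± 0.19 at day 4 (adjusted p = 0.00688) and 0.60 ± 0.21 at day 7 (adjusted p = 0.0334). Anpep, Prep, Nln and Rnpep passed the test in no comparison.

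Of 4 tested receptors and receptor partners, Agtrap, which binds the type 1 receptor and promotes its internalisation, was lower in brown cells on both days. The log2 difference was -0.69 ± 0.22 at day 7 (adjusted p = 0.0223) and -0.71 ± 0.21 at day 4 (adjusted p = 0.0137). On each day 25% of the list was called, beside 25.2% of all probe sets at day 7 and 23% at day 4. Zbtb16, a zinc finger protein known to bind the type 2 receptor, rose in white cells by 0.97 ± 0.31 (adjusted p = 0.0312). Mas1, the receptor for angiotensin-(1-7), passed in none, its log2 differences running between -0.20 and 0.34 over the group comparisons.

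Kng1, kininogen, the precursor of the bradykinin that Ace degrades, passed the test in all 5 comparisons. Its mean was 418.5 ± 81.6 in brown day 7 cells and 148 ± 46.7 in brown day 4 cells (SD, n = 5 each), and 788 ± 28.9 in white day 7 cells (SD, n = 6) and 576 ± 76.4 in white day 4 cells (SD, n = 8). No 2 groups compared overlapped, as was so for 4.79% to 18.1% of tested probe sets in any single comparison. Of all probe sets, 12.1% to 25.2% were called in each group comparison and 0.214% in the difference of changes. It rose by 1.53 ± 0.17 in brown (adjusted p = 2.67e-06) and by 0.46 ± 0.14 in white cells (adjusted p = 0.0231), and was lower in brown cells by -0.94 ± 0.16 at day 7 (adjusted p = 9.03e-05) and -2.002 ± 0.15 at day 4 (adjusted p = 1.09e-10). The rise was larger in brown cells by 1.07 ± 0.22 (adjusted p = 0.0393), a call that was lost when any 1 of 15 arrays was left out. Whether its probe set separates Kng1 from its close paralogue Kng2 was not tested. The other tested gene of the kinin list, the receptor Bdkrb1, passed in no comparison.

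Of 2 genes tested on steroid steps, Hsd11b1, which regenerates active glucocorticoid, fell in white cells by 0.60 on the log2 scale (adjusted p = 0.0209) and was higher in brown than in white cells at day 7 by 0.63 ± 0.20 (adjusted p = 0.0224). Of all probe sets, 19% were called in the first of these comparisons and 25.2% in the second. The mineralocorticoid receptor Nr3c2 was not analysed here.

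Receptor signalling was represented by 8 tested genes, of which Rgs2 rose in both cell types. Of the 8, 12.5% were called with time in brown and 25% in white cells, beside 12.1% and 19% of all probe sets. Rgs2, a regulator that switches off the Gq protein used by the type 1 receptor, had a mean of 102 ± 20.7 in brown day 7 cells and 25.4 ± 12.3 in brown day 4 cells, and 80.4 ± 22.1 in white day 7 cells and 28.9 ± 11.9 in white day 4 cells (SD). It rose by 2.14 ± 0.38 (adjusted p = 0.000557) and 1.57 ± 0.32 (adjusted p = 0.0016), with no overlap of arrays between days in either cell type. The same lack of overlap was found for 9.73% of tested probe sets in brown and 4.79% in white cells. Gna11, a Gq family subunit, was lower in brown than in white cells, by -1.50 ± 0.39 at day 7 (adjusted p = 0.00526) and -1.13 ± 0.36 at day 4 (adjusted p = 0.0263). Rock1, a protein kinase of the actin cytoskeleton, rose in white cells by 0.73 ± 0.25 (adjusted p = 0.0453). Rgs5, also on the smooth muscle and pericyte list, was higher in brown cells at day 7 by 0.81 ± 0.28 (adjusted p = 0.0352).

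Among 8 tested genes known to respond to angiotensin II, 1 differed between the cell types and 1 changed with time in each. In each group comparison 12.5% of them were called, beside 12.1% to 25.2% of all probe sets. Tgfb1, a growth factor, was higher in brown than in white cells, with means of 66.5 ± 14.3 in brown day 7 cells against 17.4 ± 7.53 in white day 7 cells, and 38.9 ± 20.9 in brown day 4 cells against 13.3 ± 10.2 in white day 4 cells (SD). The log2 differences were 2.02 ± 0.43 (adjusted p = 0.00104) and 1.54 ± 0.40 (adjusted p = 0.00658), with 4 of 8 white day 4 arrays at the floor. Ccn2, connective tissue growth factor, rose in white cells by 0.92 ± 0.28 (adjusted p = 0.022), and Edn1, endothelin, fell in brown cells by 0.68 on the log2 scale (adjusted p = 0.0481). The list's median, day 7 minus day 4, was 0.60 in brown and 0.48 in white cells, beside 0.01 for all probe sets in each. Only 1 of 8 was called in each, Edn1, which fell, and Ccn2, so the medians rest on uncalled genes. Among these, Fos and Egr1 had medians of 64.7 and 137.5 in white day 7 cells, with highest arrays of 1283 and 910.6.

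Of 7 tested factors known to bind the Agt promoter, none was called higher at day 7 than at day 4 in either cell type. Of all 8397 probe sets, 504 were called higher in brown and 702 in white cells, so that none of 7 is near the share of all. Cebpd, a transcription factor of early adipogenesis, fell in both cell types, by 0.97 in brown (adjusted p = 0.00452) and 1.04 in white cells (adjusted p = 0.000607) on the log2 scale. Cebpb was lower in brown than in white cells by -0.92 ± 0.14 at day 7 (adjusted p = 2.18e-05) and -0.90 ± 0.13 at day 4 (adjusted p = 1.59e-05). Cebpa, also on the adipocyte list, was higher in brown cells at day 4 by 0.68 ± 0.20 (adjusted p = 0.0166).

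Several of these calls stood near the threshold or were lost once the Gapdh ratio entered the model. White day 7 arrays barely overlap the others in this ratio. The parts of RNA quality and of group in such losses therefore cannot be told apart. With the Gapdh ratio as a covariate, 0 of the 10 pathway calls in white day 7 against day 4 passed, and 2 of the 10 in brown against white at day 7, beside 37 and 274 of all probe sets. Leaving out single arrays ended the call of Edn1 in 16 of 24 refits, of Rock1 in 15, of Rgs5 in 6, of Thop1 at day 7 in 5, and of Zbtb16 in 4. It was ended for Hsd11b1 in white cells without array 35, 36 or 43, and at day 7 without array 08, 36 or 43. Further such calls were Gna11 at day 4 without array 05, 06 or 09, Agtrap at day 4 without array 09 and at day 7 without array 12 or 39, and Ccn2 without array 36 or 39. Under the alternatives other than single arrays, calls were lost in 41 of 359 refits. Among them were Cebpa at day 4 with quantile normalization and Kng1 in white cells without arrays 45 and 51. Edn1 kept its call in 6 of 11 such refits, Rock1 in 5 of 11 and Zbtb16 in 5 of 10.

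**Figure D4:**
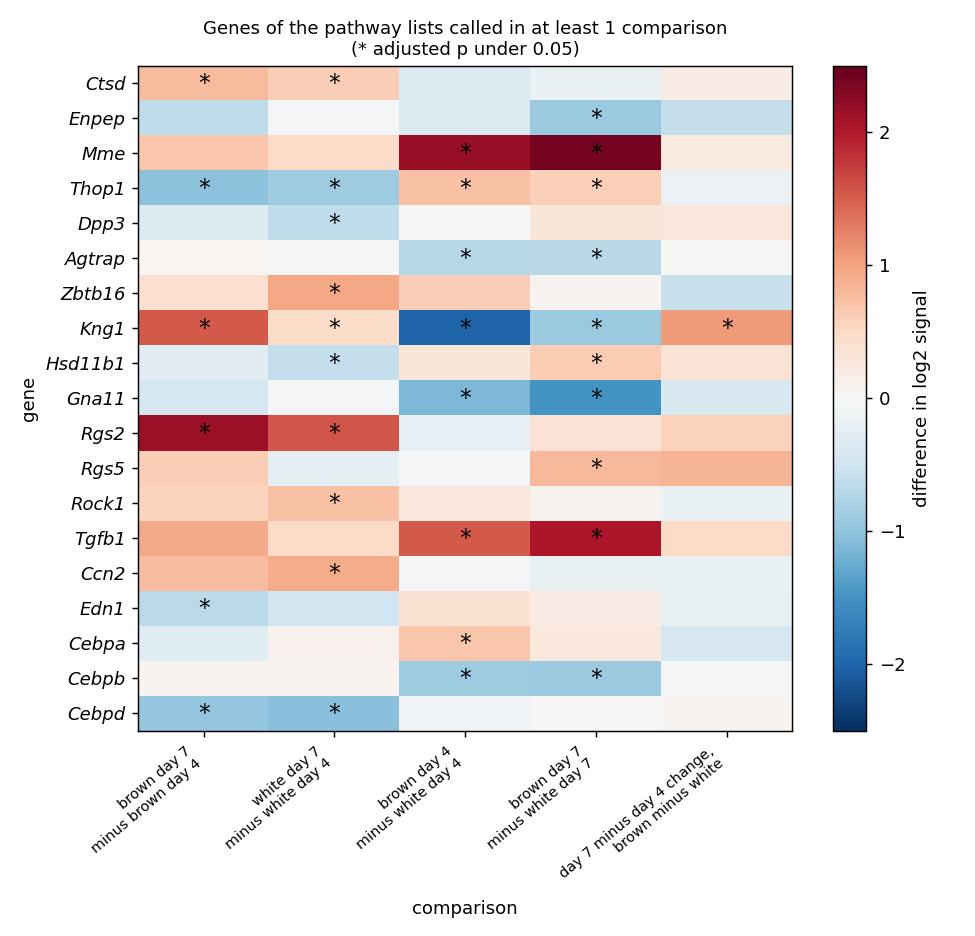
Difference in log2 signal of the 19 pathway genes called in at least 1 comparison (rows), in each of 5 comparisons (columns), red for higher and blue for lower. Stars mark an adjusted p under 0.05. Mme and Tgfb1 are called higher in brown than in white cells on both days, and Rgs2 is called higher at day 7 in both cell types.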

How the data were processed

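Trizol RNA (5 ug per sample) was copied into biotinylated cRNA with 1 round of amplification, per the labels' protocols, and hybridised to 24 Affymetrix U74Av2 arrays. The authors deposited linear probe set signal intensities from MAS5, a tool named in the submitters' processing notes without a version. Their 2% trimmed means of 150.094 to 150.117 show that scaling to 150 preceded deposit. Because MAS5 takes mismatch signal off, intensities close to background scatter widely. There are no counts behind an array value, and the number of arrays limits the precision. Median signals ran from 41.9 to 59.0, and correlations within groups from 0.890 to 0.964.

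Each array was set to a trimmed mean of 150, signals under the 20th percentile of all values (8.21) were raised to that floor, and log2 was taken. A probe set was kept if its signal exceeded its array's 40th percentile (23.8 to 35.8) on 5 or more arrays, and 66 control probe sets were dropped, which left 8397. Of their values, 1.56% were at the floor. All 4 groups entered a single limma 3.58.1 model (lmFit, then eBayes with intensity trend, 20 residual degrees of freedom) in R 4.3.3. Tests were two-sided, with Benjamini-Hochberg adjustment over the 8397 and a threshold of 0.05. A value after ± is the standard error of the fit unless marked SD. The "at least" fold is against the floor. The fit was tested on simulated data.

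Symbols were those of the platform annotation, some of them old: 10855 probe sets had 1 symbol, 396 several and 1237 none. Each list gene is represented by its brightest tested probe set, by mean log2 signal. Named were all probe sets of the members, every list gene called in at least 1 comparison, and the 5 genes most correlated with each member. Members and lists were chosen with earlier results of these data known. Alternatives changed the floor, scaling, filter, trend, array weights, arrays fitted, number runs and the Gapdh ratio.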

Additional observations from a re-analysis of the deposited data

Results flagged for a closer look

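In groups of 5 to 8 arrays, 6 of 91 sets of floored log2 values held an array far from the rest. Chance gives about 1 in 20 for values not tied at the floor. Where all other arrays of a group were at the floor, any single array above it was flagged. This was so for Ace, and for Mme in white day 4 cells. For Ace on 161224_f_at, the brown day 4 array 06 gave 9.76, the others 1.86 to 2.63. For Edn1, the white day 4 array 45 gave 117, the others 78.6 to 88.7. For Zbtb16, the same array gave 8.39, the others 26.7 to 65.3. For Mme, the brown day 7 array 22 gave 46.7, the others 72.8 to 80.5, and the white day 4 array 33 gave 25.0, the others 1.39 to 5.45. For Gna11, the brown day 7 array 22 gave 103, the others 21.1 to 31.9. Kng1 rose more in brown than in white cells by 1.07 on the log2 scale, the single pathway gene whose change with time differed between the cell types by the interaction test (limma).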

How the results depend on the processing

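No paired analysis was possible because the groups share no replicate numbers, so that number runs, whose meaning is not stated, were fitted as a block instead. Of the members' differences, 193 of 207 moved by less than 1 SD under the alternatives other than single arrays. With single arrays left out it was 455 of 455, but leaving out 1 array can hardly shift a group mean by 1 SD. That count was thus all but fixed in advance. No member difference larger than 1 SD turned direction, which leaving out 1 array could hardly bring about, and no called list gene did. The smaller difference of changes for Ace on 160927_at was 0.29, and -0.11 without the brown day 4 array 09. Values near the floor moved with it. Without a floor, Agtr2 was -2.32 in white day 7 minus day 4, 5.70 in brown minus white at day 7 and 3.47 in the difference of changes, and Ace on 161224_f_at was 2.12 in brown day 7 minus day 4, -1.61 in brown minus white at day 4 and -0.0581 in the difference of changes. With the floor at the 40th percentile, Agtr2 was -0.0514, 2.58 and 1.05 in the same comparisons, and Ace on 161224_f_at was 0 in brown and 0.69 in white day 7 minus day 4 and -0.69 in brown minus white at day 7. With the Gapdh ratio as a covariate, brown minus white at day 7 was 4.18 for Agtr2 and -0.0425 for Ace on 160927_at. The number of probe sets called was 1665 with array weights and 1612 with number runs as a block in brown day 7 against day 4 (668 to 1165 with single arrays left out, the lowest without brown day 7 array 08). It was 1053 without white day 4 arrays 45 and 51 and 37 with the Gapdh ratio in white cells, and 274 with the Gapdh ratio in brown against white at day 7. For the difference of changes it was 10 without a floor, 35 with the higher floor, 10 without the filter, 8 with a stricter filter, 11 without the trend, 45 with array weights, 48 with number runs, 5 with the Gapdh ratio and 4 to 23 with single arrays left out, the lowest without brown day 7 array 12. Pathway genes called were 10 with array weights in brown cells, 0 with the Gapdh ratio in white cells (6 to 10 with single arrays left out, the lowest without white day 7 array 36), 5 with the stricter filter in brown against white at day 4, 6 with the stricter filter and 2 with the Gapdh ratio at day 7. For the difference of changes they were 0 without the filter, without the trend, without arrays 45 and 51 and with the Gapdh ratio, and 0 to 1 with single arrays left out. The causes were not tested. The probe set 161224_f_at could not be fitted when any 1 of 5 white day 7 arrays was left out, as it then failed the filter.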
